A study of Ciona robusta with 6 samples.

Results

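The tail muscle regulators Tbx6-r.b, Mrf and Snail were followed in whole embryos of the tunicate Ciona robusta whose Brachyury gene had been targeted with Cas9. They are 5 of the 15284 gene models in the deposited table: 3 copies of Tbx6-r.b (KH.S654.1, KH.S654.2 and KH.S654.3), Mrf (KH.C14.307) and Snail (KH.C3.751). The models were chosen by identifier, by a rule that uses no measured value but was written with earlier results of these data known, and all 5 passed the filter on low values. The table pairs no identifier with a name, so these names rest on general knowledge of the gene model set and were not checked against it.

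In the CrBra group, unfertilized eggs received Cas9 protein with crRNA and tracrRNA directed at Brachyury, and in the CrGFP group the same mix carried a guide to GFP, a gene that this species lacks. Both groups were thus injected with Cas9, fertilized, and grown at 21 degrees Celsius to Hotta stage 14, a neurula stage, with 3 libraries per group. Each library came from a pool of 50 to 85 whole embryos, so a level averages over all tissues and over embryos that may carry different edits. In such pools, fewer muscle cells and less transcript per muscle cell cannot be told apart.

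The Ciona tadpole has a notochord along the middle of its tail, flanked by bands of muscle. Brachyury, a T-box transcription factor, specifies the notochord. The tail muscle is set up by a maternal zinc-finger factor that switches on genes of the Tbx6-related family, also T-box factors, in the muscle lineage. These act upstream of Mrf, the myogenic bHLH factor of the MyoD family, and of Snail, a zinc-finger repressor known in Ciona to keep Brachyury off in the muscle lineage. Snail is also transcribed outside the tail muscle, in the neural plate among other places.

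As a check of the labels, KH.S1404.1 was read first; the same general knowledge gives it as Brachyury. It had a normalised count (reads divided by 1 factor per library) of 298, 205 and 313 in CrBra replicates 1, 2 and 3, against 950, 582 and 1058 in CrGFP replicates 1, 2 and 3. Each CrBra library thus kept 31.4%, 35.3% or 29.6% of the level in the CrGFP library of its number. Across all gene models, CrBra and CrGFP libraries of the same number departed from their group means alike. For this reason the fold changes of the 5 regulator models are given with intervals from limma with and without the replicate number as a block.

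The 6 libraries held 13191537 to 16094085 reads. At an adjusted p under 0.05, limma with the block called 48 of 11953 tested models (0.402%), and KH.S1404.1 was among them. Without the block limma called 0 (0%), with 60 models at an unadjusted p under 0.05, while DESeq2 without the block called 21. None of the 5 muscle regulator models was called with or without the block in limma, edgeR or DESeq2. This count of 0 of 5 is to be read against the share of 0.402% over all models.

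**Figure D1:**
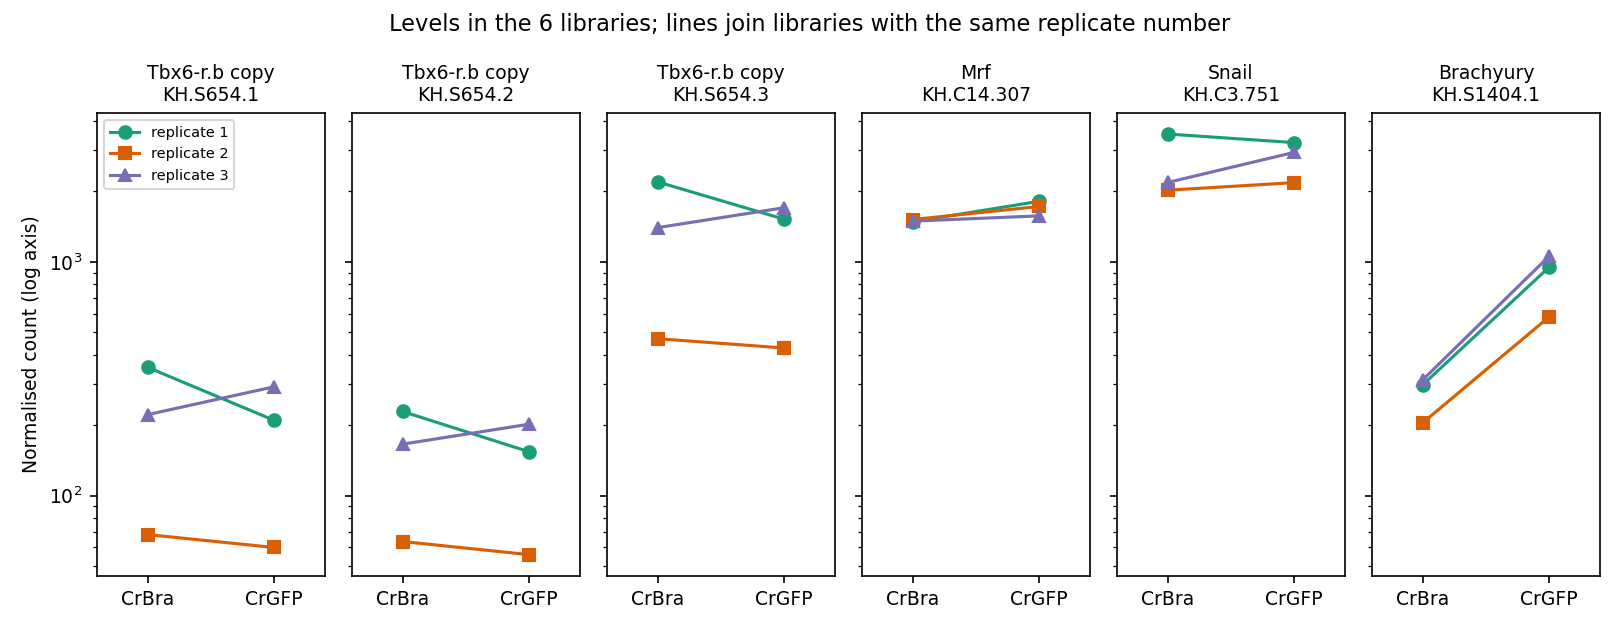
Normalised count (log axis) of the 5 muscle regulator models and of KH.S1404.1 in CrBra and CrGFP embryos; each point is a library and lines join libraries with the same replicate number. In each Tbx6-r.b copy both libraries of number 2 are lowest, and those of the other numbers interleave. KH.S1404.1 separates by guide.

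Tbx6-r.b stands at the top of the muscle cascade among these genes. Its most abundantly counted copy, KH.S654.3, had a normalised count of 2198, 469 and 1401 in CrBra replicates 1, 2 and 3, against 1522, 428 and 1704 in CrGFP replicates 1, 2 and 3. The groups overlapped over most of their range, and the 2 libraries of number 2 were the lowest of the 6. KH.S654.1 had 354, 68.1 and 222 in the CrBra libraries, against 210, 60.0 and 292 in the CrGFP libraries. KH.S654.2 had 229, 63.6 and 166 in CrBra, against 154, 55.9 and 202 in CrGFP. In all 3 copies CrBra replicate 1 was the highest library and CrGFP replicate 2 the lowest.

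The copies summed to a normalised count of 1723 ± 1092 in CrBra and 1542 ± 879 in CrGFP (SD, n = 3 each). Their difference on the log2 scale was 0.14, far below the spread between libraries (exact permutation test, two-sided, p = 0.8, where 3 against 3 libraries cannot give less than 0.1). Exchanging labels within the pairs gave an exact p of 0.75, where the smallest possible is 0.25. The log2 fold changes of the single copies were 0.18, 0.16 and 0.13 for KH.S654.1, KH.S654.2 and KH.S654.3 (blocked limma, adjusted p = 0.999 for each).

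The precision of these values depended on the pairing. For KH.S654.3 the 95% interval of the CrBra level was 0.893 to 1.33 times the CrGFP level with the block, and 0.344 to 3.46 times without it. For KH.S654.1 the corresponding intervals were 0.833 to 1.54 with the block and 0.322 to 3.98 without it, and for KH.S654.2 they were 0.855 to 1.45 and 0.401 to 3.10. With the block, each interval thus left out a 2-fold change of these models in either direction. Without it, none did. limma draws the variance of each model towards that of other models of like level, so these intervals rest partly on other models. The SD of the 3 log2 differences within pairs was 0.571, 0.424 and 0.406 for KH.S654.1, KH.S654.2 and KH.S654.3. Its median over tested models was 0.138. Intervals from the pairs of each copy alone were not computed. With SDs this far above the median they would be wider, so without the borrowed variance a 2-fold change is not excluded.

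The direction was not steady between the pairs. In pair 1 the CrBra library had 1.44 times the KH.S654.3 level of its CrGFP library (95% interval 1.36 to 1.54, counting error only). In pair 2 this ratio was 1.10 (0.955 to 1.26), and in pair 3 it was 0.822 (0.765 to 0.884). Pairs 1 and 3 therefore lay on opposite sides of equality by more than counting error.

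The other copies had the same order of pairs. KH.S654.1 had ratios of 1.68 (1.43 to 1.99), 1.14 (0.781 to 1.65) and 0.760 (0.634 to 0.910) in pairs 1, 2 and 3. KH.S654.2 had 1.48 (1.22 to 1.82), 1.14 (0.772 to 1.68) and 0.823 (0.664 to 1.02). Pair 1 ratios as far from 1, either way, as those of KH.S654.1, KH.S654.2 and KH.S654.3 occurred in 4.46%, 8.17% and 9.13% of tested models. The same shares were 28.5%, 28% and 38.9% in pair 2 and 11.5%, 18.3% and 18.1% in pair 3.

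A single library could set the sign of these small differences. Without CrBra replicate 1 the unblocked log2 fold changes of KH.S654.1, KH.S654.2 and KH.S654.3 were -0.33, -0.23 and -0.35, and without CrGFP replicate 2 they were -0.50, -0.39 and -0.51. In the blocked fit without pair 1 they were -0.11, -0.05 and -0.08.

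**Figure D2:**
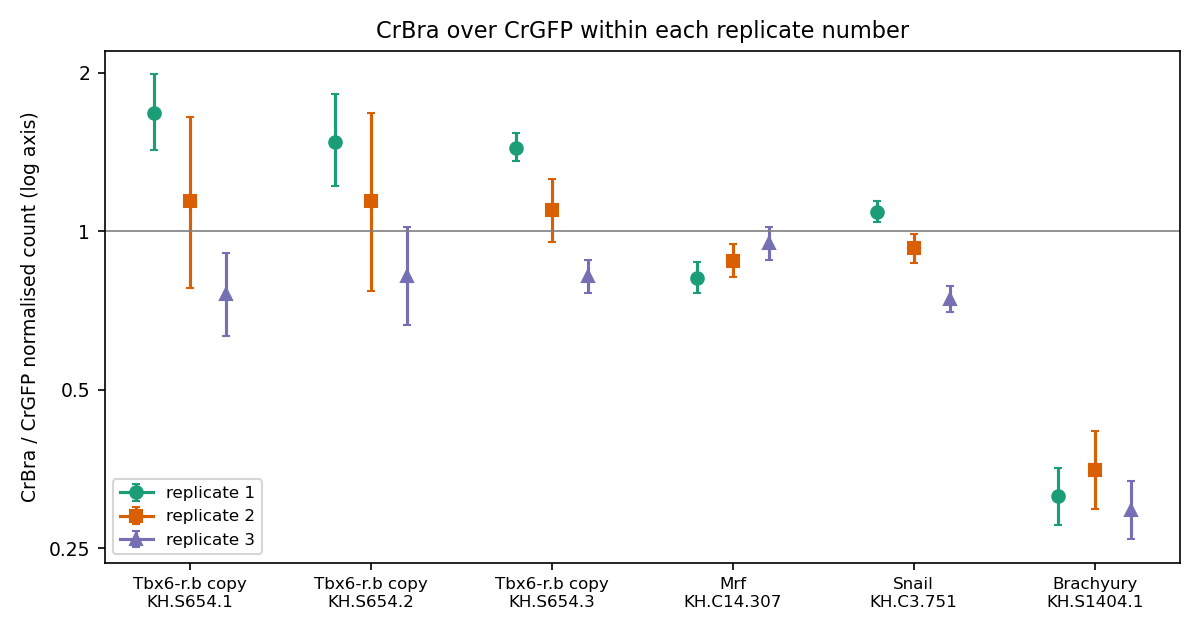
CrBra level divided by CrGFP level within each replicate number (log axis), with 95% intervals that cover counting error only; the grey line marks equal levels. The Tbx6-r.b copies lie above the line in pairs 1 and 2 and below it in pair 3, Mrf lies below it in all 3 pairs, and KH.S1404.1 lies between 0.296 and 0.353.

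For the Tbx6-r.b copies, the difference between replicate numbers was larger than that by guide. Averaged over both groups, KH.S654.3 had a normalised count of 1860, 448 and 1552 in numbers 1, 2 and 3, so that number 2 held 26.3% of the mean of the other numbers. For KH.S654.1 and KH.S654.2 number 2 held 23.8% and 31.9%. In limma with the guide as covariate, all 3 copies and Snail differed among the numbers, with adjusted p of 0.00019 (KH.S654.1), 0.000284 (KH.S654.2), 3.60e-05 (KH.S654.3) and 0.00209 (Snail), as did 73.4% of all tested models. These 4 of 5 are close to that background share, but the 3 copies moved together and may share reads, so they do not count separately. What the numbers stand for is not given in the labels.

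The size of the range was less common than the call. Between the highest and lowest number KH.S654.1 ranged 4.22-fold and KH.S654.3 4.08-fold, and 4.13% and 4.37% of tested models ranged as widely. KH.S654.2 ranged 3.11-fold (7.66% of models). The median tested model ranged 1.47-fold.

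The 3 copies kept nearly constant proportions while their sum moved. KH.S654.3 took 79.0%, 78.1% and 78.3% of the reads of the copies in CrBra replicates 1, 2 and 3, against 80.7%, 78.7% and 77.5% in CrGFP replicates 1, 2 and 3. KH.S654.1 took 12.2% ± 0.73 in CrBra and 11.8% ± 1.28 in CrGFP, and KH.S654.2 took 9.4% ± 1.19 in CrBra and 9.2% ± 1.06 in CrGFP (SD, n = 3 each). The reads behind these shares ran from 535 to 3284 per library, and the 95% Wilson interval of the KH.S654.3 share was widest in CrBra replicate 2, at 74.4% to 81.4%.

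No share differed by guide beyond its spread. The mean difference in percentage points, CrBra minus CrGFP, was 0.34 for KH.S654.1, 0.16 for KH.S654.2 and -0.49 for KH.S654.3, with exact permutation p of 0.8, 0.7 and 0.8 (0.8 for each after adjustment over the 3 shares). This unpaired test of 3 against 3 libraries cannot give a p under 0.1, and the shares were not tested within pairs. The 3 shares add up to the whole, so their tests are not separate. How reads that match more than 1 copy were assigned is not given in the sources used here, so the split between the copies is uncertain. Their sum avoids that split, but it too would change if such reads were dropped or counted more than once. The shares are of reads and are not corrected for transcript length.

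**Figure D3:**
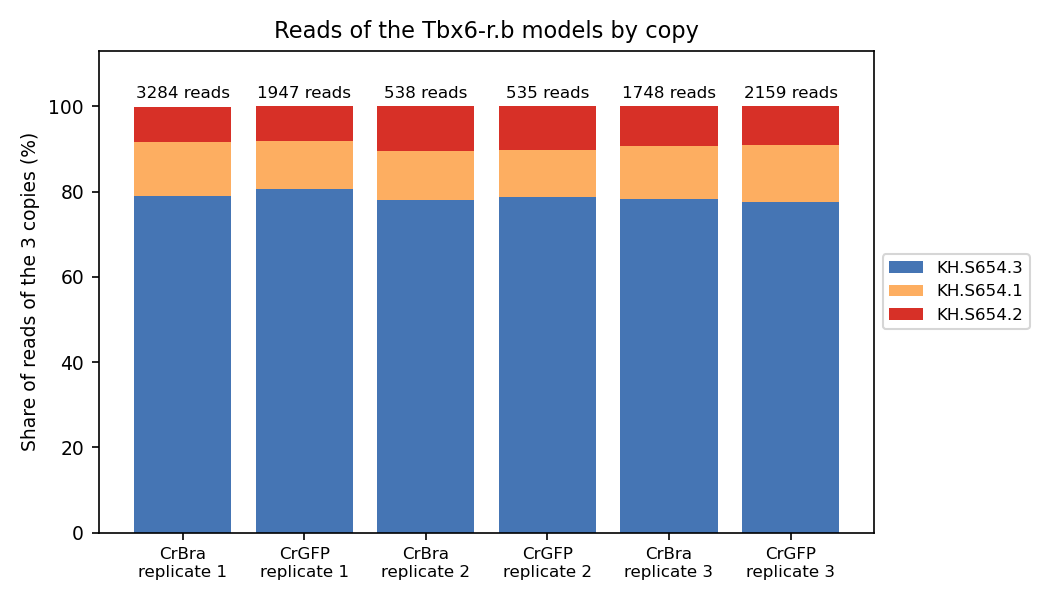
Share of the reads of the 3 Tbx6-r.b models (percent) that each copy took in each library, CrBra beside CrGFP within each replicate number, with the number of reads above each bar. KH.S654.3 holds 77.5% to 80.7% in all 6 libraries although the reads range from 535 to 3284.

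The identifiers KH.S654.4 and KH.S654.5 share their prefix with the copies, and the files pair neither with a name. KH.S654.4 had a normalised count of 1571, 1183 and 1218 in CrBra replicates 1, 2 and 3, against 1542, 1139 and 1113 in CrGFP. KH.S654.5 had 2492, 3326 and 2323 in CrBra, against 2497, 3560 and 2224 in CrGFP. Number 2 held 85.3% of the mean of the other numbers for KH.S654.4 and 144% for KH.S654.5, unlike the copies at 23.8% to 31.9%.

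Mrf, which drives muscle differentiation downstream of the Tbx6-related factors, was the steadiest of these models between replicate numbers. KH.C14.307 had a normalised count of 1484, 1517 and 1493 in CrBra replicates 1, 2 and 3, against 1815, 1725 and 1573 in CrGFP replicates 1, 2 and 3. All 3 CrBra libraries lay below all 3 CrGFP libraries. Groups failed to overlap in 1.78% of tested models, and in 1.14% with CrBra below. A model this steady between numbers can fail to overlap at a small difference, and 97.2% of tested models ranged as widely or more. A log2 difference by guide as large as that of Mrf, in either direction, was found in 17.1% of models. The means were 1498 ± 17.3 in CrBra and 1704 ± 122 in CrGFP (SD, n = 3 each).

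Within pairs 1, 2 and 3 the CrBra library had 0.817 (95% counting interval 0.765 to 0.873), 0.879 (0.818 to 0.945) and 0.949 (0.883 to 1.02) times the Mrf level of its CrGFP library. A model was lower in all 3 pairs in 11.1% of the tested models. On the log2 scale the fold change was -0.18, a level of 88.0% of the control (SE 0.0568 in blocked limma, 0.118 without the block). It did not pass over all models in either fit (adjusted p = 0.708 with the block and 1 without it).

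The unadjusted p for Mrf in limma was 0.164 without the block and 0.0115 with it. In the blocked fit 570 of 11953 tested models had a p under 0.05, no more than the share of 0.05 that would arise if no model differed. The 95% interval of the CrBra level was 0.804 to 0.964 times the CrGFP level with the block and 0.725 to 1.07 times without it. Both intervals lie above the 0.321 measured for KH.S1404.1, whose own interval was 0.284 to 0.362 with the block and 0.202 to 0.510 without it. As for the Tbx6-r.b copies, the Mrf intervals rest partly on the variance of other models. An interval from the Mrf pairs alone was not computed, so that the blocked one leaves out equal levels depends on this. The sign for Mrf stayed negative in every setting run, with log2 fold changes from -0.24 to -0.11.

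Mrf did not share the low level of number 2. Its means over both groups were 1649, 1621 and 1533 in numbers 1, 2 and 3, a range of 1.07-fold that 97.2% of tested models matched or exceeded. The test among numbers gave an adjusted p of 0.405 in limma. Number 2, where the Tbx6-r.b copies held 23.8% to 31.9% of their mean in the other numbers, held 101.9% of the mean for Mrf.

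Snail resembled the Tbx6-r.b copies in part. KH.C3.751 had a normalised count of 3522, 2025 and 2186 in CrBra replicates 1, 2 and 3, against 3237, 2182 and 2940 in CrGFP replicates 1, 2 and 3. The groups overlapped, with CrBra libraries holding both the highest and the lowest value. The means were 2578 ± 822 in CrBra and 2787 ± 544 in CrGFP (SD, n = 3 each).

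The Snail ratio of CrBra to CrGFP was 1.09 in pair 1 (95% counting interval 1.04 to 1.14), 0.928 in pair 2 (0.871 to 0.988) and 0.743 in pair 3 (0.703 to 0.786). As with the Tbx6-r.b copies, the ratio was above 1 in pair 1 and lowest in pair 3, and the spread between pairs exceeded counting error. How many tested models have this order of pairs was not counted, so the likeness may not be particular to these genes. The log2 differences within pairs spread as widely as those of Snail in 23.1% of models. On the log2 scale the fold change was -0.14, with an SE of 0.0908 in blocked limma (adjusted p = 0.999) and of 0.251 in the unblocked fit (adjusted p = 1). The CrBra level had a 95% interval of 0.787 to 1.05 times the CrGFP level with the block and 0.602 to 1.37 times without it. These intervals too rest partly on the variance of other models. Without CrBra replicate 2, or in the blocked fit without pair 3, the log2 fold change was 0.01.

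Between replicate numbers Snail ranged 1.61-fold, with means of 3380, 2104 and 2563 in numbers 1, 2 and 3. Such a range was matched or exceeded in 39.0% of tested models. The corresponding shares for the Tbx6-r.b copies were 4.13% to 7.66%.

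**Figure D4:**
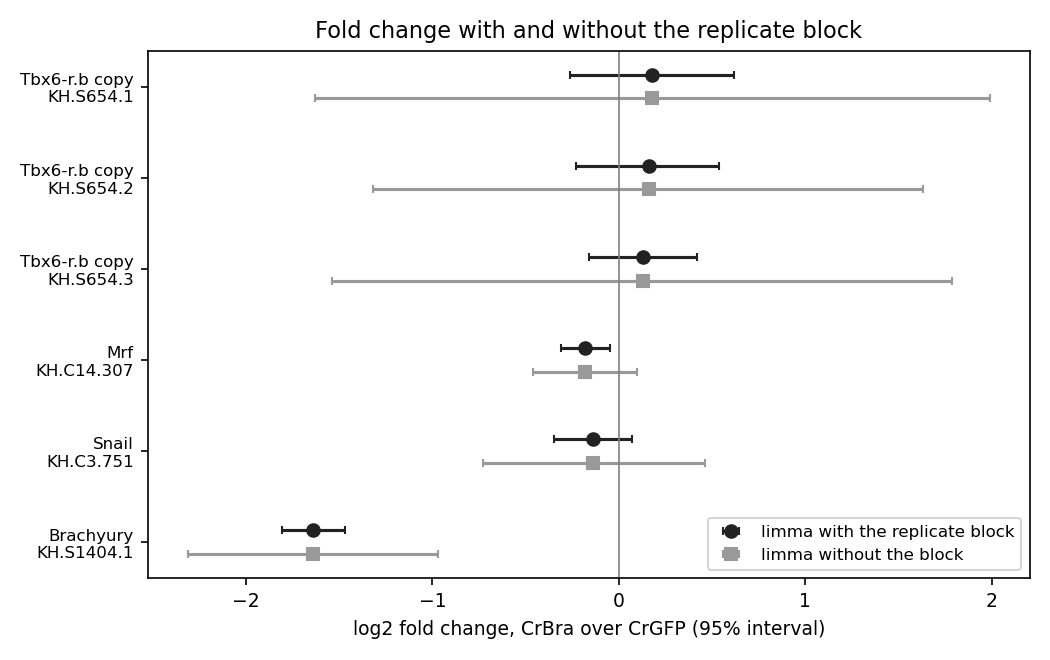
Log2 fold change of CrBra over CrGFP with its 95% interval in limma with the replicate block (black circles) and without it (grey squares). With the block the intervals of the Tbx6-r.b copies and Snail include 0, that of Mrf runs from -0.31 to -0.05 and does not pass after adjustment over all models, and that of KH.S1404.1 runs from -1.81 to -1.47.

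Set beside all tested models, the average differences by guide were moderate. The median tested model differed by 0.0602 in size on the log2 scale. A difference at least as large in either direction was found in 17.7%, 20.7% and 26.4% of models for KH.S654.1, KH.S654.2 and KH.S654.3, in 17.1% for Mrf, in 24.1% for Snail and in 0.176% for KH.S1404.1. The 3 log2 differences within the pairs had an SD of 0.571, 0.424 and 0.406 for the copies, 0.276 for Snail, 0.107 for Mrf and 0.13 for KH.S1404.1, against a median of 0.138 over tested models. An SD as large was found in 6.46%, 12.2% and 13.1% of models for KH.S654.1, KH.S654.2 and KH.S654.3. For Snail this share was 23.1% and for Mrf 60.7%.

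**Figure D5:**
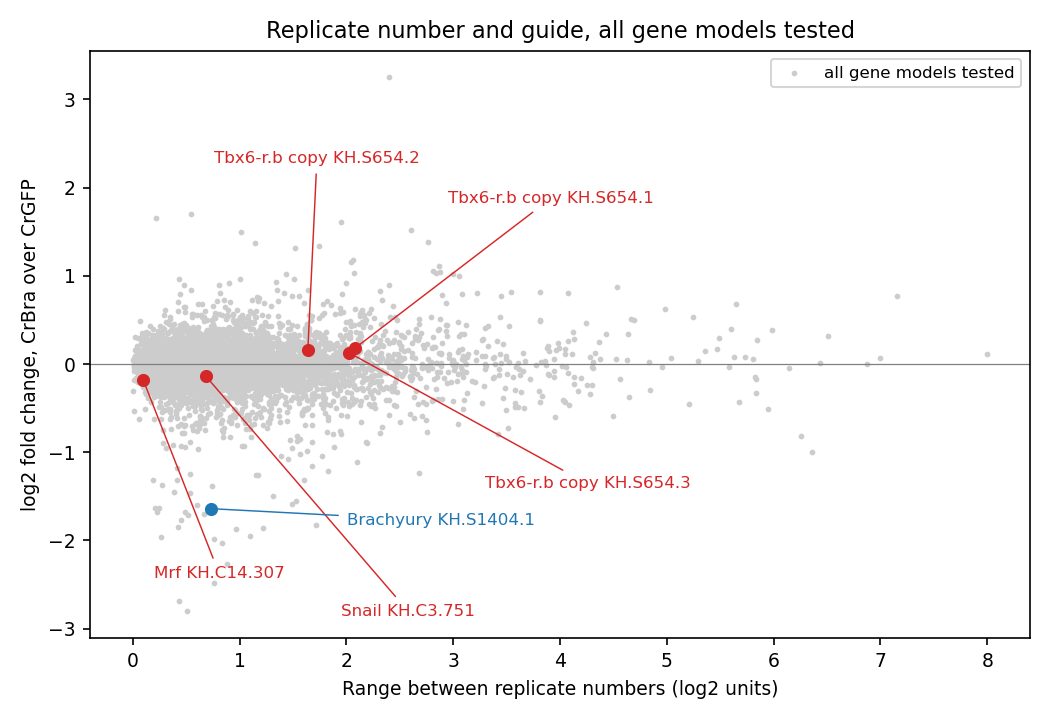
Log2 fold change of CrBra over CrGFP against the range between replicate numbers (log2 units) for the 11953 tested gene models (grey), with the muscle regulator models in red and KH.S1404.1 in blue. The Tbx6-r.b copies lie right of most models and near 0 on the vertical axis, Mrf lies at the left edge, and KH.S1404.1 lies at -1.64.

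The gene models whose level over the 6 libraries was most like each regulator were found by Pearson's r of log2(normalised count + 1). The 6 libraries fall into pairs and are not independent, so r is given as a description. KH.S654.1 and KH.S654.2 were closest to each other (r = 0.9995). Next came KH.C1.1005 for KH.S654.1 (r = 0.9985) and KH.L156.5 for KH.S654.2 (r = 0.9992), while KH.S654.3 was most like KH.C2.1022 (r = 0.9994) and KH.C3.877 (r = 0.9983). The files pair none of these with a name. An r of at least 0.95 was reached by 563, 570 and 642 of 11952 other models for KH.S654.1, KH.S654.2 and KH.S654.3. Many models thus rose and fell over the libraries in the same way, but r takes no account of how far. KH.C2.1022 ran from 1459 in CrGFP replicate 2 to 2310 in CrBra replicate 1, where KH.S654.3 ran from 428 to 2198.

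The pattern of Mrf was rarer, with 8 models at an r of at least 0.95. The closest were KH.S404.11 (r = 0.985) and KH.C9.131 (r = 0.983). KH.S404.11 had a normalised count of 2564, 2558 and 2559 in CrBra replicates 1, 2 and 3, against 2615, 2599 and 2578 in CrGFP (log2 fold change -0.02, blocked limma adjusted p = 0.999). KH.C9.131 had a normalised count of 5157, 5759 and 5127 in CrBra replicates 1, 2 and 3, against 7859, 7184 and 5674 in CrGFP (log2 fold change -0.36, blocked limma adjusted p = 0.239). Snail was most like KH.C8.377 (r = 0.998) and KH.C5.565 (r = 0.994), and 98 models reached 0.95.

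Other muscle genes could not be read beside these regulators. Of 21 tail muscle symbols listed, 0 were in the RefSeq gene table used here, and 0 of the 15284 identifiers matched it. The amount of muscle in the embryos was therefore not analysed here, nor were gene positions, lengths, promoters or proteins.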

How the data were processed

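Whole-embryo RNA-seq libraries, 3 CrBra and 3 CrGFP, were made with a stranded mRNA kit, per the labels' protocols. The submitters' processing notes name TopHat2 2.9.8b and DESeq 1.8.1, as written there. Which genome build, counting tool and strand setting were used is not given in the sources used here. In the deposited table, the authors list KH2012 gene models with a signal per library (counts scaled to library size, per the file headers) and with regularized log2 values. All 12 value columns were matched to samples by name. Replicates are biological ones, per the design text.

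Within each column 100% of normalised values were whole multiples of 1 read (tolerance 0.01), so whole reads were recovered. Intervals on ratios within a pair are exact binomial ones at 95% and cover counting error only. A count of 0 would allow up to 3 reads.

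The filter on low values asked for a normalised count of 10 or more in 3 or more libraries; 11953 models passed and 3331 did not. log2(value + 1) was compared by limma 3.58.1, trend fitted, in R 4.3.3, two-sided, with Benjamini-Hochberg adjustment over all tested models at 0.05. Fold changes and their intervals are on this scale, which understates changes of low models. Without the block, the fit is the planned one. Deviations from group means correlated at 0.86, 0.88 and 0.82 between same-number libraries of the 2 groups and at -0.57 to -0.30 between others. Subtracting group means pushes the latter below 0 when the former are high, so the latter add no separate evidence. From the former the numbers were taken to pair the libraries, although the labels do not say what they share. edgeR 4.0.16 and DESeq2 1.42.0 were run on recovered reads. The limma fits and the blocked edgeR fit were tested on simulated data. Single values were tested by exact permutation in SciPy 1.17.1.

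The named models are the 5 regulators, the model taken as Brachyury, other KH.S654 identifiers and, for each regulator, the 2 models of highest correlation. The members (by identifier) and the lists were chosen with earlier results of these data known.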

Additional observations from a re-analysis of the deposited data

How the results depend on the processing

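For the 5 regulators, all 50 values from the 10 settings that kept every library had the sign and the side of the threshold given in the report. These settings were the replicate block, pseudocounts of 0.5 and 5, no filter, regularized log values, edgeR and DESeq2, the last 3 also with the block. Of 45 values with a library or a pair left out, 12 changed sign and none was called. Over these, the log2 fold change ran from -0.50 to 0.85 for KH.S654.1, from -0.39 to 0.69 for KH.S654.2, from -0.51 to 0.76 for KH.S654.3, from -0.50 to 0.77 for the summed copies, from -0.39 to 0.01 for Snail and from -0.24 to -0.13 for Mrf. In the blocked fit without replicate 1 the 3 copies were at -0.11, -0.05 and -0.08. KH.S654.3 and the sum also turned negative without CrBra replicate 3 (-0.03 and -0.02). The number of regulators differing among replicate numbers was 4 in each setting run.

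KH.S1404.1 was not called without the block in limma or edgeR. It was called in DESeq2 without the block (-1.66), in limma with the replicate block (-1.64), on blocked regularized log values (-0.91, a shrunken scale), in blocked edgeR and DESeq2 (-1.65 each), and in the blocked fits without 1 pair (-1.71 to -1.58, and -1.63 without replicate 1). Without 1 library and the block it ran from -1.90 to -1.45 and was not called. Models called over the whole table numbered 48 with the replicate block in limma, 53 on blocked regularized log values, 57 in blocked edgeR, 58 in blocked DESeq2, 21 in DESeq2 without the block, and 25 to 100 in the blocked fits without 1 pair (88 without replicate 1), which leave 1 residual degree of freedom per model. The other unblocked settings called 0, with 49 to 112 models at an unadjusted p under 0.05. The causes of these shifts were not tested. KH.S654.1 and KH.S654.2 had 55 to 61 reads in the libraries of number 2, where counting error alone widens the ratio to 0.772 to 1.68.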
